A study of Arabidopsis thaliana with 18 samples.

Results

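The introns described here end at either of 2 acceptors that lie 13 to 60 nt apart. An acceptor is the 3′ splice site, the last base of an intron. Of 5403 splicing events listed for every library, 1974 were alternative acceptors, and 913 of these, in 752 genes, had a distance of 13 to 60 nt, taken as the difference between the 2 intron lengths in the event's name. A further 361 alternative acceptors lay up to 12 nt apart and 700 lay more than 60 nt apart. In all 913 members the donor, the first base of the intron, was the same for both forms. In 900 of them the reference genome had GT or GC at the donor and AG at both acceptors, and 13 lacked AG at one acceptor. The shared donor end put 4 members on the strand opposite to the one in their name, and 8 were named for 2 genes.

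Transcripts came from the first leaf of Arabidopsis thaliana at 14 days of age, grown on MS plates (1% sucrose) with 16 h of light a day (22 °C by day, 18 °C in the 8 h of dark) at an intensity of 100 µmol m-2 s-1. The 5 inbred accessions were Col-0, whose genome is the reference, Bur-0, C24, Kro-0 and Ler-1. The 4 F1 hybrids were Col-0 x Bur-0, Col-0 x C24, Col-0 x Kro-0 and Col-0 x Ler-1, so that all of them share Col-0 as a parent, and the parental comparisons share the Col-0 libraries. Each of the 9 groups had 2 biological replicates, 18 libraries of polyA RNA in all, and neither a treatment nor a transgene was named. The deposited PSI of a library is the reads of the upstream acceptor divided by the reads of both acceptors plus 1 read, given below in percent. A member that uses the upstream acceptor alone therefore stays below 100%, by more where reads are few, while one that never uses it is at exactly 0. Libraries held 680266 to 1236377 reads over the members, with a median of 68 to 133 reads a member, and 821 members had at least 10 reads in all 18. Replicates differed by a median of 1.19 to 1.56 percentage points of PSI, depending on the group. The labels do not say whether replicates came from separate plants or pools, so p-values measure the spread between these libraries. How much of that spread is technical is not known. A leaf holds several cell types, and a change in cell makeup cannot be told apart from a change of splicing within cells.

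As background, the spliceosome first marks the donor and the branch point, and then cuts at an AG that follows a stretch rich in pyrimidines. Where more than one AG is within reach, the distance from the branch point, the base before AG and the sequence around it bear on the choice. Using the upstream acceptor adds the stretch between both acceptors to the transcript. In coding sequence a stretch whose length is a multiple of 3 adds codons, and any other length shifts the reading frame, which can bring an early stop codon and degradation of the transcript by nonsense-mediated decay.

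The following 7 sequences are shown because their members, all inside coding sequence, differed widely among accessions. Each runs 5′ to 3′ in the Col-0 reference from 20 nt before the upstream intron end to 6 nt after the downstream one, and capitals mark the last 2 bases of each intron form. ZML1 is at chr3:7424516-7424556 (+ strand), AT1G35340 at chr1:12978216-12978284 (+), AL6 at chr2:654317-654369 (+), AT2G39280 at chr2:16403200-16403240 (−), AT5G42530 at chr5:17005052-17005125 (−), GA3 at chr5:9037941-9038005 (+) and Tic32-IVa at chr4:12230507-12230562 (+).
ZML1: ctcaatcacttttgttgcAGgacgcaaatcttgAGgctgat
AT1G35340: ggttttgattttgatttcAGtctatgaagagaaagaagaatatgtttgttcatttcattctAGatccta
AL6: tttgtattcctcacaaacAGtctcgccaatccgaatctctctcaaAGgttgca
AT2G39280: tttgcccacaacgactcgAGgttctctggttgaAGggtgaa
AT5G42530: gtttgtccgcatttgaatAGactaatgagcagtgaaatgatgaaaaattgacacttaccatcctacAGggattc
GA3: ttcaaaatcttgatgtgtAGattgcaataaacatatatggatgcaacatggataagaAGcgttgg
Tic32-IVa: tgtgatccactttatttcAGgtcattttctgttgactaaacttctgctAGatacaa

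Another 5 are shown because the reference lacks AG at one of their acceptors, where the capitals then mark the other letters. AT5G37130 is at chr5:14682238-14682321 (+), ckl3 at chr4:14253894-14253953 (+), AT1G58230 at chr1:21573628-21573668 (+), SR30 at chr1:2944955-2945001 (−) and DEG15 at chr1:9923045-9923100 (−). Coordinates and letters are from the TAIR10.1 RefSeq assembly of Col-0; sequences of the other accessions were not used here.
AT5G37130: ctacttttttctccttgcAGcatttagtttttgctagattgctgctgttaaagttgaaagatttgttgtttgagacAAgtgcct
ckl3: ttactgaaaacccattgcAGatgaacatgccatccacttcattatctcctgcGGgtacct
AT1G58230: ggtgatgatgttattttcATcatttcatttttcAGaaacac
SR30: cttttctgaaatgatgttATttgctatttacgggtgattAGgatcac
DEG15: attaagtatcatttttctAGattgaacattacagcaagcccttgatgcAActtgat

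Short distances were the most frequent among the 913 members. The median was 22 nt, and 400 members (43.8%) lay 13 to 20 nt apart, against 57 (6.24%) at 51 to 60 nt. The distance was a multiple of 3 in 291 members (31.9%). Both acceptors lay within coding sequence in 740 members (81.1%), of which 226 (30.5%) had a multiple of 3. The 5′ UTR held 127 members, with a multiple of 3 in 46 (36.2%), and the 3′ UTR held 20. The annotation listed both introns of 248 members, the one with the downstream acceptor alone of 308, the one with the upstream acceptor alone of 320, and neither of 37. The upstream intron end was CAG in 442, TAG in 307, AAG in 136 and GAG in 19, and the downstream one CAG in 549, TAG in 216, AAG in 124 and GAG in 20. No further AG stood between the acceptors of 550 members (60.2%). Members are not all independent, since 108 genes held more than 1 and 119 members shared their donor with another member.

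**Figure D1:**
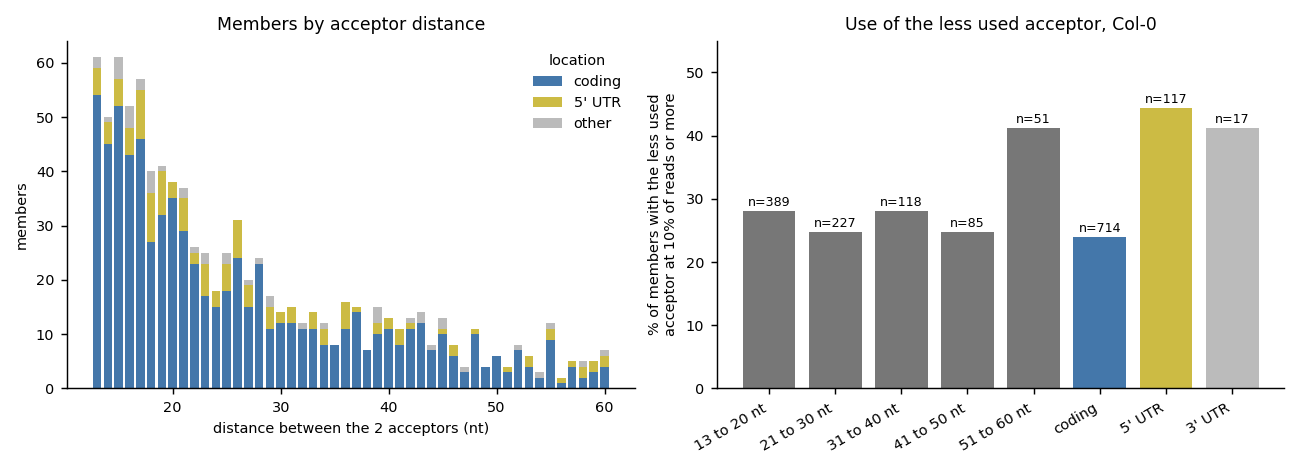
Left, the number of members at each acceptor distance in nt, coloured by location. Right, the percent of members whose less used acceptor took at least 10% of reads in Col-0, by distance and by location, over the n members with 10 reads in each Col-0 library; the bar of the 5′ UTR stands at 44.4% and that of coding members at 23.9%.

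Most members used one acceptor for nearly all transcripts. In Col-0 the less used acceptor had a median share of 3.22% of reads over the 870 members with at least 10 reads in each library, and it reached 10% of reads in 240 (27.6%). For acceptors up to 12 nt apart the share reaching 10% was 53.1%, with a median of 12%, and above 60 nt it was 31%, with a median of 4.56%. Just outside and inside the limits, the median was 3.43% for the 62 events 12 nt apart, 2.27% for the 59 members with depth of 61 at 13 nt, 0.395% for the 5 of 7 at 60 nt and 0.268% for the 2 events at 61 nt. The upstream acceptor was ahead in 447 members (51.4%).

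The share of members whose less used acceptor reached 10% of reads was close in all groups. Col-0 had 27.6% ± 0.619 (SD between its 2 libraries), Bur-0 26.8% ± 1.90, C24 24.9% ± 0.0611, Kro-0 26.4% ± 1.61 and Ler-1 25.7% ± 0.201, and the hybrids had 26.8% to 28.1%. C24 was lowest, but with a minimum of 20 reads a library Kro-0 was, at 21.3% against 21.7% in C24. The less used acceptor had no read at all in 54 Col-0 members, while the other accessions had 71 to 109 such members and the hybrids 48 to 72. Median reads a member were 251 in Col-0, 143 to 208 in the other accessions and 185 to 228 in the hybrids, and the part of depth in these counts was not tested.

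Location and reading frame went with how evenly both acceptors were used in Col-0. The less used acceptor reached 10% of reads in 171 of 714 coding members (23.9%), with a median share of 2.82%, and in 52 of 117 members of the 5′ UTR (44.4%), with a median of 8.44%; members of the 5′ UTR had fewer reads, a median of 153 against 288.5. Among coding members the share was 29.9% where the frame was kept and 21.5% where it was shifted. In the 5′ UTR the order was the other way, 34.1% for multiples of 3 and 50.7% for other distances. These shares describe 1 accession and were not tested.

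Both reading frames could be built from the annotated transcripts for 714 coding members. An early stop codon, more than 50 nt before the last exon junction, was found in the form with the upstream acceptor alone in 240 members, in the downstream form alone in 211, in neither in 258 and in both in 5. Of the 216 members with a kept frame among these, 157 (72.7%) ended at the same stop codon in both forms. In Col-0 the form with the early stop had a median of 3.36% of reads over 451 members, reached 10% in 110 (24.4%) and was ahead in 21 (4.66%). The frames were read from annotated transcripts whose own form had no early stop where one existed, so the annotated form lacks a stop partly by construction, and the annotated form is mostly the main one. Where only the upstream intron was annotated, that acceptor was ahead in 312 of 315 members, and where only the downstream one was, in 4 of 299.

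The base before AG went with the acceptor chosen. Where the upstream intron ended in CAG or TAG and the downstream one in AAG or GAG, the upstream acceptor had a median of 97.4% of Col-0 reads and was ahead in 81 of 100 members. In the opposite arrangement the median was 4.36% and it was ahead in 24 of 108. With CAG or TAG at both ends the median was 58.5% over 624 members, and the upstream acceptor was ahead in 52.2%. With CAG at both ends the median was 85.7% over 278 members, and with TAG at both 9.36% over 87. The upstream acceptor was ahead in 62.9% and 34.5% of these. A further AG between the acceptors went with a higher median of upstream use, 84.5% against 27.8% without one. The upstream acceptor was ahead in 203 of 333 members with a further AG and in 244 of 537 without, a smaller contrast than that of the medians. These are descriptions across members of different genes.

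**Figure D2:**
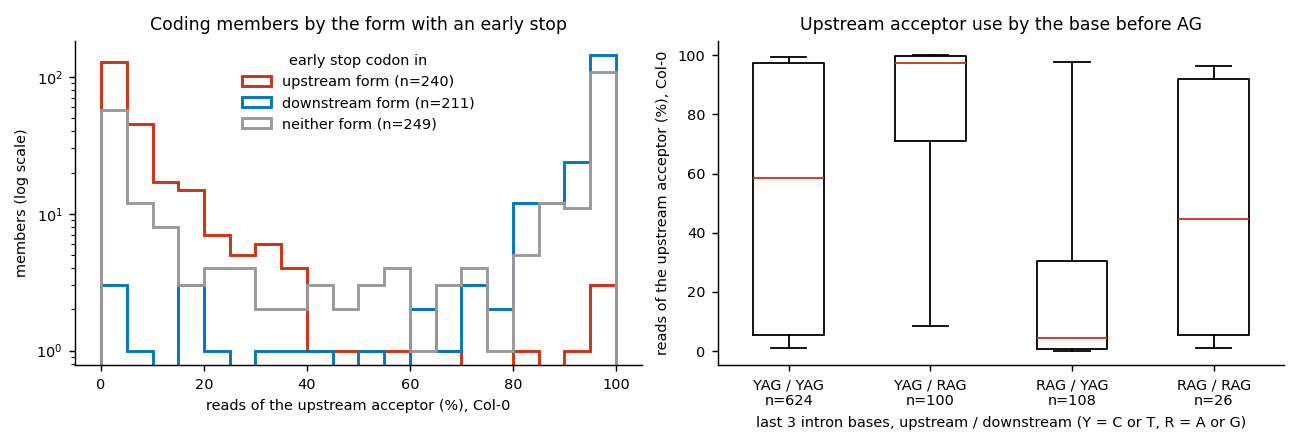
Left, coding members in Col-0 by the percent of reads at the upstream acceptor, on a log count axis, for an early stop codon in the upstream, the downstream or neither form. Right, the same percent by the bases before AG; boxes span the quartiles with the median as a line and whiskers run from the 10th to the 90th percentile, and the medians are 58.5%, 97.4%, 4.36% and 44.6%.

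The comparison of the 5 accessions asked where acceptor choice differs with genetic background. By edgeR's quasi-likelihood test with Benjamini-Hochberg adjustment over all events, 126 of 822 tested members (15.3%), in 116 genes, differed among the accessions at an adjusted p under 0.05. Of all 4937 events tested 19.8% were called. The called share was 11.4% for acceptors up to 12 nt apart and 23.0% for those over 60 nt. The range of the 5 group means reached 10 points in 53 called members and 50 points in 12. In 16 the main acceptor was not the same in every accession. Divided at the widest gap between the 5 means, 1 accession stood apart from the others in most called members, which was Bur-0 26 times, Ler-1 21, Col-0 18, C24 16 and Kro-0 13 times. The other 32 divided into 2 and 3 accessions. Either outermost gap leaves 1 accession apart, so such divisions come partly with the rule. The gap could be small, such as 0.03 points at PSAE-1. Leaving out each library in turn gave 78 to 122 called members. The counts of 78 and 83 without either Bur-0 library were more than 1.5 times lower than 126, as was that of 75 by limma on PSI. In simulated data 14.3% of the calls of this test were false, more than the nominal rate, so some of the 126 may be false.

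Against Col-0, 63 of 851 tested members were called in Bur-0, 23 with more and 40 with less use of the upstream acceptor, where 8.95% of all events were called. In C24, 39 of 840 were called (21 higher, 18 lower) against 6.02% of all events, and in Kro-0, 35 of 846 (12 higher, 23 lower) against 5.19%. Ler-1 had 54 of 853 (18 higher, 36 lower) against 6.97%. The members' shares of 7.40%, 4.64%, 4.14% and 6.33% were all below these backgrounds. Acceptors up to 12 nt apart were lower still, at 5.49%, 1.86%, 2.15% and 3.96%. Those over 60 nt apart were at 11.2%, 5.83%, 5.0% and 7.1%. Differences of at least 10 points made up 28, 21, 20 and 28 of the calls. Leaving out each library in turn, Col-0's included, lowered every count, to 25 to 42 (Bur-0), 19 to 21 (C24), 18 to 21 (Kro-0) and 23 to 34 (Ler-1).

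Several members changed from one acceptor to the other in a single accession. AT4G25030, a kinase gene, has acceptors 19 nt apart in its 5′ UTR (chr4:12865307-12865325, the stretch between them). Its PSI was 99.2% and 99.1% in the Col-0 libraries, 0.568% and 0.485% in Kro-0, and 98.1% to 99.7% in the libraries of Bur-0, C24 and Ler-1. Kro-0 was thus far below every other accession, by 98.6 points from Col-0 (adjusted p = 5.51e-13). The hybrid with Kro-0 stood between its parents, at 55.5% and 50%.

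ZML1, a GATA-type zinc finger transcription factor, has acceptors 15 nt apart that keep the frame. All 139 Col-0 reads used the upstream acceptor, which allows up to 2.16% for the other, and all 57 Ler-1 reads used the downstream one, which allows up to 5.26% for the upstream one. Bur-0, C24 and Kro-0 libraries lay at 95.8% to 98.8%, beside 98.7% and 98.5% in Col-0, and did not approach those of Ler-1 at 0 (adjusted p = 2.35e-08 for Ler-1 against Col-0). The downstream site ends in GAG, the rarest of the 4 AG endings among downstream acceptors. In the hybrid with Ler-1, PSI was 76.6% and 75%.

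AT4G38520, a protein phosphatase of type 2C, showed the same pattern at 5′ UTR acceptors 21 nt apart (chr4:18017662-18017682). The upstream acceptor took 129 of 129 Col-0 reads and 1 of 135 Ler-1 reads, with PSI values of 1.43% and 0 in the Ler-1 libraries against 97.1% to 98.6% in the other accessions (adjusted p = 3.06e-09 against Col-0). The hybrid of Ler-1 was at 43.5% and 50%. In the 5′ UTR shared by AT1G53780, a proteasome ATPase gene, and AT1G53785, acceptors 13 nt apart had a PSI of 95.2% and 96.7% in Col-0 and 0 of 63 upstream reads in Kro-0 (adjusted p = 8.03e-08). The hybrid stood at 42.9% and 49.0%, and the other accessions at 92.9% to 97.3%.

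C24 stood apart at AT3G10760, a Homeodomain-like gene with 3′ UTR acceptors 29 nt apart (chr3:3370918-3370946). Its libraries were at 15% and 11.5%, below all libraries of the other accessions, which ranged from 88.9% to 98.0% (84.6 points below Col-0, adjusted p = 3.95e-07). Bur-0 stood apart at AT1G35340, a gene with a LON protease domain whose downstream form, 43 nt shorter, has an early stop. PSI was 30.2% and 39.0% in Bur-0, 99.5% and 99.1% in Col-0 and at least 98.8% in the other accessions (adjusted p = 1.45e-08). Reads of both forms together numbered 82 in Bur-0 and 408 in Col-0, and the hybrid, with 232 reads, stood at 78.8% and 83.6%.

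Ler-1 also stood apart at AT2G32910, a DCD domain gene (47 nt), with 33.3% and 14.3% on 24 reads against 95.5% to 98.0% in the other accessions (adjusted p = 6.04e-05), and at the 5′ UTR acceptors of ZDS, an enzyme of carotenoid synthesis (20 nt). ZDS had 1 upstream read of 44 in Ler-1, where libraries of the other accessions ranged from 26.7% to 72.2%. With Col-0 at 46.7% and 61.1% the fall was called (adjusted p = 0.00089), but not by limma on PSI (adjusted p = 0.0579). The hybrid of ZDS was at 47.4% and 66.7%, within the range of the accessions other than Ler-1.

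**Figure D3:**
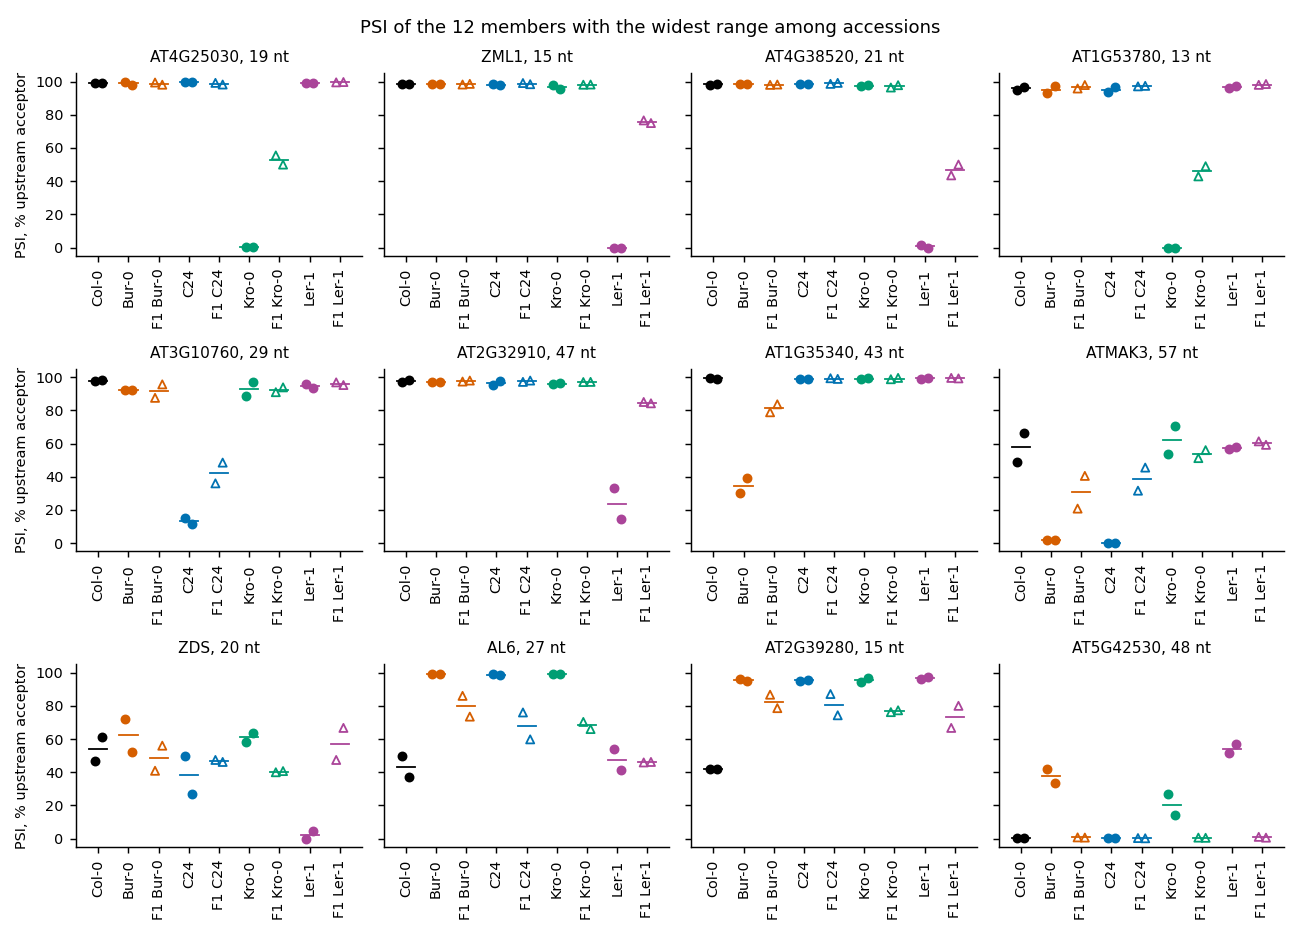
PSI in percent, the use of the upstream acceptor, of the 12 called members with the widest range among accessions, 1 a gene. Filled circles are libraries of accessions, open triangles libraries of the F1 hybrid with the named accession, and lines group means; in AT4G25030 the Kro-0 libraries lie near 0, their hybrid near 52.7% and all others near 99%.

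Other members divided the accessions into groups of 2 and 3. AL6, an Alfin-like PHD finger protein that binds a methylated histone mark, has coding acceptors 27 nt apart that keep the frame and are both annotated. Col-0 libraries were at 49.6% and 37.0% and Ler-1 libraries at 53.9% and 41.2%, while Bur-0, C24 and Kro-0 had no downstream read among 217, 157 and 219. Those 3 lay between 98.5% and 99.2%, apart from Col-0 and Ler-1 (adjusted p = 9.54e-08, 4.39e-07 and 1.17e-07 against Col-0). Hybrids with those 3 had means of 79.7% ± 8.89, 67.9% ± 11.5 and 68.2% ± 2.99 (SD, n = 2), and the hybrid with Ler-1 46.1% ± 0.208.

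ATMAK3, an N-terminal acetyltransferase gene, divided otherwise. At its 5′ UTR acceptors 57 nt apart, Bur-0 had 2 upstream reads of 108 and C24 had 0 of 50, against 49.0% and 66.2% in the Col-0 libraries. Kro-0 and Ler-1 libraries lay between 53.8% and 70.6% and overlapped those of Col-0. Both falls were called (adjusted p = 2.10e-06 and 2.57e-05). AT3G52050, an exonuclease family gene with 5′ UTR acceptors 27 nt apart (chr3:19305185-19305211), used the upstream acceptor in 84 of 84 reads of Bur-0, 42 of 44 of C24 and 59 of 59 of Kro-0, and in 0 of 31 of Col-0 and 0 of 22 of Ler-1. Rises were called in the first 3 (adjusted p = 1.94e-06, 2.39e-05 and 7.90e-06, the second not by DESeq2, at 0.058), and Ler-1 had too few reads for the test of all 5.

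Col-0 itself stood apart at AT2G39280, GA3 and Tic32-IVa. AT2G39280, a Rab-GAP domain gene, has annotated acceptors 15 nt apart, with PSI values of 42.1% and 41.7% in Col-0 on 29 reads and 94.4% to 97.2% in the libraries of the other 4 (adjusted p = 0.000456 to 0.00135). GA3 encodes the kaurene oxidase of gibberellin synthesis, and its acceptors 39 nt apart keep the frame. Here Col-0 was the higher one, at 97.3% and 98.8%, and the libraries of the others ranged from 48.0% to 69.0% (adjusted p = 1.06e-05 to 4.41e-05; by limma on PSI 3 of the 4 missed the threshold, at 0.0509 to 0.0906). All 4 hybrids of GA3 lay between, with means of 69.3% to 80.1%.

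Tic32-IVa, a dehydrogenase-like protein of the chloroplast import machinery, had the smallest spread of these. Its acceptors are 30 nt apart and both annotated. Col-0 libraries were at 74.2% and 74.7% and those of the other accessions at 98.2% to 99.7%, a rise of 24.4 to 25.1 points with adjusted p from 3.13e-07 to 3.82e-06. The hybrids had means of 84.1% to 86.9%, below every other accession and above Col-0.

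Further members were called in 1 accession. AHP5, a phosphotransfer protein of cytokinin signalling with acceptors 28 nt apart, was at 73.9% and 80.0% in Bur-0 and at 9.21% and 3.49% in Col-0 (adjusted p = 6.10e-07); the upstream form has an early stop. C24 had too few AHP5 reads for a test, so the 5 accessions were not tested together either. Kro-0 and Ler-1 were not called, at -6.349 and -0.423 points from Col-0. GLTP1, a glycolipid transfer protein (5′ UTR, 19 nt), fell to 1 of 102 reads in Kro-0 from 33.8% and 31.7% in Col-0 (adjusted p = 4.40e-05), and its hybrid was at 27.5% and 29.6%. CHLM, a methyltransferase of chlorophyll synthesis (3′ UTR, 43 nt), rose to 81.0% and 82.7% in C24 from 57.1% and 60.8% (adjusted p = 0.00126).

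The gene iqd21, for a protein with a calmodulin-binding IQ domain (5′ UTR, 34 nt), rose to 13.1% and 15.6% in Ler-1 from 0.73% and 1.33% (adjusted p = 0.000222). NUDT9, a Nudix hydrolase (13 nt), had 7 upstream reads of 26 in Kro-0 and none in the other 4 accessions, where 31 to 54 reads allow up to 5.56% to 9.68%. AT3G61420, a BSD domain gene (26 nt), was at 72.7% and 57.1% in Ler-1 and at 35.9% and 36.5% in Col-0; C24 was at 60% and 52.4% without a call (adjusted p = 0.243), nor was the member called among all 5 accessions (0.0725). The calls of NUDT9 in Kro-0 and AT3G61420 in Ler-1 were near the threshold (adjusted p = 0.0425 and 0.0367), and leaving out a library ended them in all 4 and in 3 of 4 cases, with adjusted p up to 0.211 and 0.384; DESeq2 did not call AT3G61420 either.

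Reads were very unequal at AT5G42530, an uncharacterized gene with 2 members. Its acceptors 48 nt apart had a PSI of 0.249% and 0.397% in Col-0 on 25880 reads, of 41.8% and 33.7% in Bur-0 on 553, of 26.8% and 14.3% in Kro-0 on 89 and of 51.3% and 56.9% in Ler-1 on 95. C24, with 72658 reads, was at 0.191% ± 0.00831. High PSI thus went with few reads; upstream reads numbered 83 in Col-0 and 53 in Ler-1. The rises in Bur-0, Kro-0 and Ler-1 were called (adjusted p = 5.55e-07, 3.81e-05 and 2.74e-07), that in Kro-0 not by limma on PSI (0.0883). By the accessions' own coordinates the distance of this member was 55 nt in Bur-0 and Ler-1, and 48 nt in C24 and Kro-0, as in Col-0. The second member of AT5G42530, 16 nt apart, shares an acceptor and reads with the first.

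Acceptors that lack AG in the Col-0 reference were mostly without Col-0 reads. Of the 13 such members, 12 had no Col-0 read at that acceptor. Such a site can be listed through reads of other accessions alone, so the absence of Col-0 reads and a difference among accessions come partly with the listing. In 10 of the 12 only 1 accession had reads there. In all 12, a hybrid had reads there only if its parent other than Col-0 did. For the 5-accession test 12 of the 13 had enough reads and 11 were called, beside 15.3% of all tested members and 19.8% of all events, from which nothing is read for that reason.

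Among those tested, the widest range of accession means, 40.35 points, was at AT5G37130, a gene of the prenyltransferase family. Its acceptors lie 58 nt apart and its downstream site reads CAA in the reference. That site took 28 of 69 reads in Bur-0 and 16 of 49 in C24, and none of 86 in Col-0, 184 in Kro-0 and 216 in Ler-1. PSI was 68.8% and 48.7% in Bur-0 and 70.0% and 57.1% in C24, against 97.8% and 97.7% in Col-0 (adjusted p = 0.000202 and 0.00126, the second 0.0535 by limma on PSI). Hybrids with Bur-0 and C24 lay between, at 71.4% to 79.4% in their libraries.

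In ckl3, a casein kinase I-like gene (34 nt), the downstream site reads CGG and took 68 of 339 reads in C24 (PSI 79.4% and 79.5%) and none of 239 in Col-0 (98.9% and 99.3%; adjusted p = 2.57e-05). The hybrid was at 88.8% and 88.1%. SR30, an SR protein that acts in splicing itself, has an upstream site 21 nt before the annotated one that reads TAT, and the stretch between them adds an early stop in frame. C24 was at 5.44% and 6.78% on 263 reads, its hybrid at 1.68% and 1.37% and all other libraries at 0, Col-0 on 626 reads (adjusted p = 0.000524).

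DEG15, a peroxisomal processing protease, used a downstream site reading CAA in Ler-1 alone among accessions, in 21 of 158 reads at the member 30 nt apart (PSI 91.0% and 80.5% against 99.0% and 99.1% in Col-0; adjusted p = 0.00175, by limma on PSI 0.0996). A second member of DEG15, 16 nt apart, ends at the same site and had 6 to 24 reads in the accessions. In Ler-1 that site took 21 of its 24 reads (87.5%), but reads were too few for the test among 5 accessions. PNG1, a peptide N-glycanase (16 nt, upstream CCG in the reference), had 10 of 114 reads there in Bur-0, 11 of 115 in C24, 14 of 93 in Kro-0 and none of 193 in Col-0 and 132 in Ler-1. By the accessions' own coordinates its distance was 17 nt in Bur-0, C24 and Kro-0 and 16 nt in Ler-1, as in Col-0. Its calls in those 3 were not made by limma on PSI (adjusted p = 0.113 to 0.338), and the C24 call was lost in 3 of 4 cases with 1 library left out, at up to 0.194. AT1G58230 (15 nt, upstream CAT) and AT1G17940 (14 nt, upstream CAA) had 19.6% and 16.2% of reads there in C24 and 8.70% and 5.13% in its hybrid. Their calls against Col-0 (adjusted p = 0.0211 and 0.0103), and that of PNG1 in Bur-0 (0.0115), were lost without any 1 of the 4 libraries, with adjusted p up to 0.17, 0.115 and 0.114.

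The other members without AG at a site had 8.24% of reads there in Bur-0 (AT3G49650), 5.39% in Bur-0 (AT2G29670), 4.51% in C24 (AT4G00585) and 1.02% in Ler-1 (AT4G11270). The exception was DIN10, a raffinose synthase family gene, where the upstream intron ends in CAT and is annotated. It took 63.9% of Col-0 reads and 34.7% to 64.6% in the other accessions. PSI was 61.2% and 69.8% in Col-0 and 33.8% and 35.5% in Bur-0. The fall was called (adjusted p = 0.00566), but neither by DESeq2 nor by limma on PSI, at up to 0.158, and it was lost in 3 of 4 cases with 1 library left out.

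**Figure D4:**
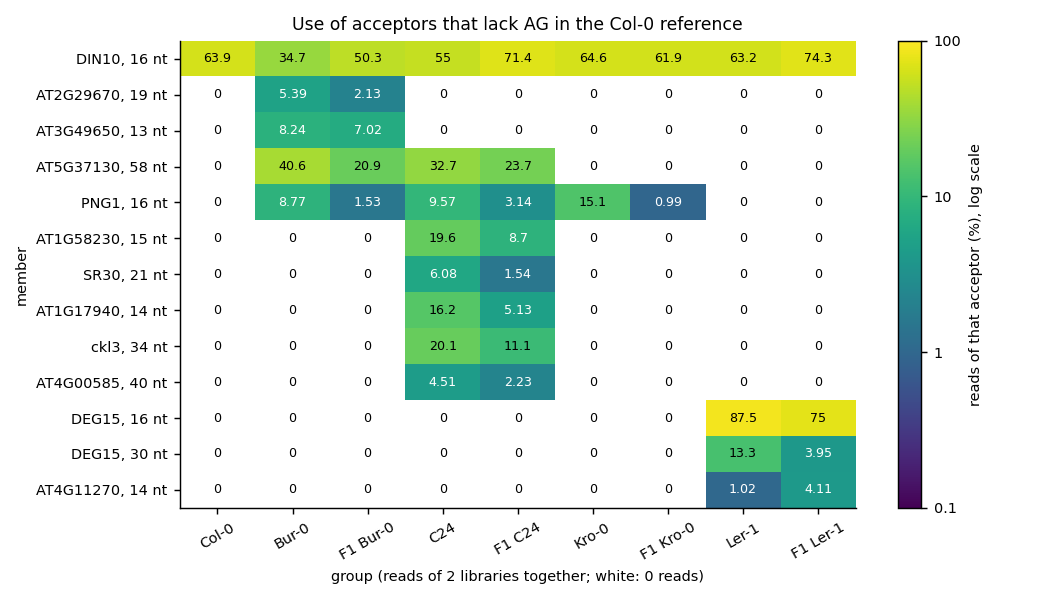
Percent of reads at the acceptor that lacks AG in the reference, for each of the 13 members and 9 groups, colours on a log scale, white for 0 reads. F1 marks the hybrid of Col-0 with that accession; apart from DIN10, reads appear in 1 to 3 accessions and in the hybrids of the same accessions.

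In the accessions' own assemblies, whose coordinates the event names also give, the distance between the acceptors differed from that of Col-0 for 24 members in 22 genes. Kro-0 had 18 of these, Bur-0 15, Ler-1 10 and C24 6. Of the 24, 21 were tested among the accessions and 13 were called (61.9%), against 113 of 801 other members (14.1%) and 19.8% of all events. The range of accession means in these 13 ran from 0.37 points at DPE2 to 53.9 at AT5G42530. It was also small at AT5G13140 (1.04), AT1G53560 (1.0) and AT1G73480 (0.75). A call need not lie in the accession with the other distance. AT2G29670 had another distance in Kro-0 alone (15 nt) and used the upstream acceptor in Bur-0 alone (5.38%). Others, such as PNG1 above and AT3G55020, AT2G39850 and HINT 2 below, differed in accessions with another distance. At KIWI, a transcriptional coactivator (40 nt, 41 nt in Bur-0), the upstream acceptor was at 19.0% and 16.4% in Col-0 and at 0 to 1.02% in the libraries of the other 4, including 3 whose distance was that of Col-0 (adjusted p = 0.000718 to 0.00331, the C24 call lost in 1 of 4 cases with a library left out, at 0.112). GER2, an enzyme of GDP-sugar conversion, fell from 6.32% and 10.6% in Col-0 (28 nt) to 0 in Bur-0, C24 and Kro-0 (31 nt) and to 1.23% and 0 in Ler-1 (28 nt), with adjusted p from 0.0128 to 0.0283. Each of these calls was lost in 3 or 4 of 4 cases with 1 library left out, at up to 0.261, and those of Kro-0 and Ler-1 also by DESeq2.

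AT3G55020, a Rab-GAP domain gene, had 26 nt in Col-0 and C24 and 50 nt in the other 3. PSI was 94.0% and 93.3% in Col-0 and 93.1% and 95.0% in C24, and 98.4% to 99.4% in Bur-0, Kro-0 and Ler-1 (adjusted p = 0.00323, 0.0241 and 0.00518). These calls were lost in 1, 3 and 2 of 4 cases with 1 library left out, at up to 0.254, and that of Kro-0 also by DESeq2. At AT2G39850, a subtilisin-like protease gene with 27 nt in 4 accessions and 17 nt in Ler-1, 18 of 344 reads in Ler-1 and none of 619 in Col-0 used the upstream acceptor (adjusted p = 0.000919). HINT 2 (47 nt, 46 nt in Bur-0 and Kro-0) was at 7.69% and 6.82% in Col-0 and at 0 of 152 reads in Kro-0 (adjusted p = 0.0121, lost in 3 of 4 cases with 1 library left out, at up to 0.121, and by limma on PSI, at 0.0871). The part of the length differences in these values was not tested.

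Genes of 5 lists that fit a leaf in long days held 15 members, and of 11 marker genes of other leaf cell types none did. Among 33 splicing factor genes, SR30 and SR45 had a member each and SR30 was called. SR45, whose long and short protein forms are known from this acceptor pair 21 nt apart, had a mean PSI of 82.1% ± 4.88 in Col-0 and of 73.5% to 85.6% in the other accessions (adjusted p = 0.277 among all 5). The clock gene LCL1 (22 nt) was at 84.3% ± 2.23 in Col-0 and 82.7% to 86.7% in the others (adjusted p = 0.956). LD of the flowering list (13 nt) was at 95.5% ± 2.51 in Col-0 and had means of 79.1% to 89.3% in the others (adjusted p = 0.198), on 23 to 67 reads.

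Of 25 photosynthesis genes 7 held 9 members, all of them nearly invariant. LHCB5, the antenna protein CP26, used its upstream acceptor in 74511 of 74536 Col-0 reads at the member 48 nt apart, and LHCA4 its upstream acceptor in 1 of 116265. In RBCS1A, the small subunit of Rubisco, the acceptor 21 nt downstream took 770 of 584788 Col-0 reads, and library PSI stayed between 99.7% and 100% in all 9 groups. CA1, a carbonic anhydrase (22 nt), was the member called: 56 of 57931 Col-0 reads used the downstream acceptor, and 2 of 52477, 0 of 39910, 0 of 45214 and 0 of 52668 in Bur-0, C24, Kro-0 and Ler-1. The PSI difference of CA1 was 0.092 to 0.096 points (adjusted p = 0.013 to 0.0352, each lost when any of the 4 libraries was left out, at up to 0.227, and by limma on PSI). PHOT2, a blue-light receptor, had 19 of 2224 reads of a downstream acceptor in Bur-0 and 0 of 1876 in Col-0 (adjusted p = 0.011, lost in 3 of 4 cases with 1 library left out, at up to 0.154, and by limma on PSI, at 0.417).

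Both acceptors took at least 20% of reads in every one of the 9 groups in 60 members of 58 genes. Both introns were annotated for 39 of these, 39 lay in coding sequence, 16 in the 5′ UTR, and 22 had a multiple of 3. Among the accessions 4 of the 46 tested were called (8.70%), beside 15.3% of all members and 19.8% of all events; the choice of members with both acceptors at 20% or more limits how far they can differ. SIG4, a plastid sigma factor (14 nt), had the most reads, and its 18 libraries ranged from 24% to 37.6%. TAFII15, a subunit of a general transcription factor (17 nt), ranged from 40% to 63.6%, and ATH13 (55 nt) from 67.0% to 76.7%. ECT4, a YTH domain reader of RNA methylation (39 nt), ranged from 52.0% to 74.6% with overlapping groups, and CCP1 (27 nt) from 22.2% to 34.5%. TTL, a transthyretin-like protein (39 nt), lay between 23.9% and 48.6% and AT3G07300 (18 nt) between 32.9% and 49.6%.

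AT2G43160, a gene of the ENTH/VHS family with 5′ UTR acceptors 29 nt apart, was one of those 4 called. Col-0 libraries had a PSI of 50.7% and 48.3%, Bur-0 libraries 74.1% and 77.7% and Ler-1 libraries 29.1% and 23.1%, while C24 and Kro-0 libraries lay at 46.5% to 54.3%. The rise in Bur-0 (adjusted p = 0.00255) and the fall in Ler-1 (0.0114) were lost in 1 and 2 of 4 cases with 1 library left out, at up to 0.0592 and 0.172. DEK1, an epidermal calpain (3′ UTR, 21 nt), was at 57.1% and 42.2% in Kro-0 and 70.7% and 75.4% in Col-0 (adjusted p = 0.030, not called by DESeq2 or limma on PSI, at up to 0.0989, and without single libraries up to 0.354).

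The hybrids were compared with their parents. edgeR's test set the log odds of the upstream acceptor in the hybrid against the mean of the parents' log odds, which is not the mean of their PSI: in Col-0 x Bur-0, AL6 was 8.54 points above the parental mean in PSI but at -2.60 from it in log2 odds. By this test, 0 of 847 members were called against the mid-parent in Col-0 x Bur-0, where 0.098% of all events were called. There, 47 members had an unadjusted p under 0.05, and DESeq2 called 2 and limma on PSI 3. In Col-0 x Kro-0 it was 0 of 842 against 0.0795% of all events, with 51 members at an unadjusted p under 0.05, 2 by DESeq2 and 0 by limma on PSI. Col-0 x C24 had 1 of 837 against 0.0597%, and Col-0 x Ler-1 had 3 of 852 against 0.137%. In simulated data for Col-0 x Bur-0, the test called 6.25% of events changed by 1 log2 odds and 61.2% of those changed by 2. A missing call therefore does not show that a hybrid equalled the mid-parent.

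The member called in Col-0 x C24 was AK-HSDH I, an enzyme of the aspartate pathway, with 5′ UTR acceptors 17 nt apart (chr1:11163059-11163075). Its upstream acceptor was at 21% and 19.5% in the hybrid, at 0 and 0.476% in Col-0 and at 6.02% and 1.12% in C24. The hybrid thus lay above both parents, 18.3 points above their mean PSI (adjusted p = 0.0047), and the means of the other groups were at 0.654% or less. The call was kept when each of the 6 libraries was left out.

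In Col-0 x Ler-1 the calls were Tic32-IVa, at 85.7% and 83.8% and 2.29 points under the mid-parent (adjusted p = 0.0234), and both members of AT5G42530. The hybrid of AT5G42530 was at 1.10% and 0.621% at the 48 nt member on 13056 reads, with parents at 0.323% on 25880 reads and 54.1% on 95 (26.3 points under the mid-parent, adjusted p = 0.0478); its 16 nt member was 22.2 points above (0.0311). The 3 calls were lost whenever 1 of the 6 libraries was left out, with adjusted p up to 0.309, 0.434 and 0.358. A mean of parents gives each parent equal weight, whatever its reads. In the same cross the PSI of ZML1 (75.8% ± 1.13 against parents at 98.6% and 0), ZDS and AT2G32910 lay nearer to Col-0 than to Ler-1, by 26.5, 29.0 and 23.9 points above the mean of the parents' PSI. On the tested log2 odds their differences were 1.13, 3.03 and -0.54. The missing calls do not bear on the PSI of AT2G32910, where the signs differ. Nor do they for ZML1, where each parent had no read of 1 acceptor, which leaves the parents' log odds unbounded. These 3 are examples, and other members lay near Ler-1, such as GIP1 at 96.5% of the way from Col-0 to Ler-1. Of the 28 members called between these parents with at least 10 points, 26 had a hybrid PSI between the parents. Their median place was 41.9% of that way, beside 44.9% over all such events.

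**Figure D5:**
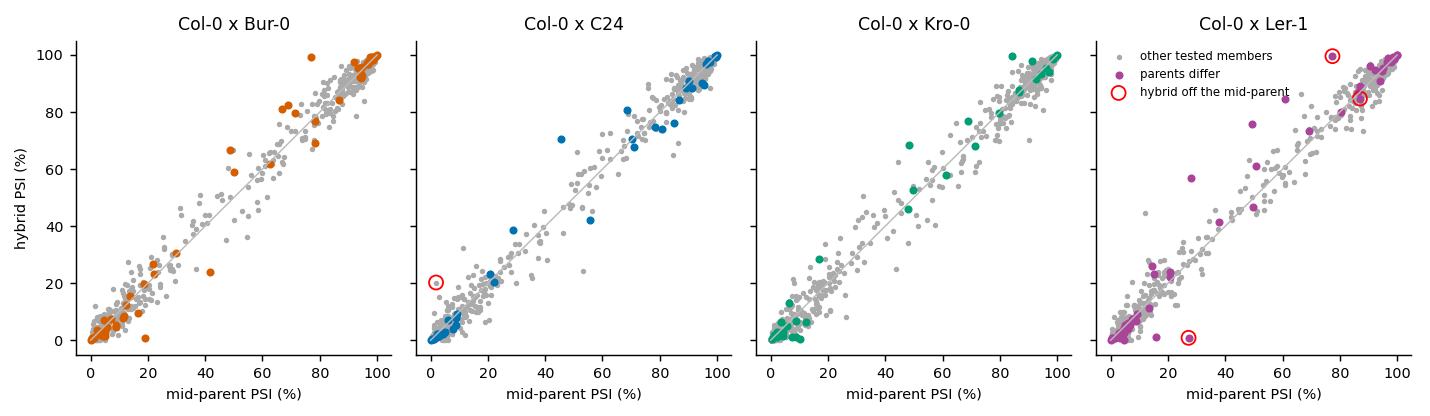
Mean PSI of each hybrid against the mean of its parents' PSI, in percent, for all tested members; coloured points are members whose parents differed and red rings mark a called departure from the mid-parent on log odds, a scale other than that of the axes. Most points lie near the diagonal, with 1 ring in Col-0 x C24, at a hybrid PSI of 20.2%, and 3 in Col-0 x Ler-1.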

How the data were processed

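Members, gene lists and the rule for named members were chosen with earlier results of these data known. PolyA RNA libraries of 9 groups were used as deposited. The authors deposited, for each event, whole-number read counts of both forms and PSI as a fraction, which equalled the reads of the second form over both plus 1. HISAT2 (no version) and edgeR 3.0.8 with TAIR10 are named in the submitters' processing notes; the counting rule is not given in the sources used here. Intervals of the first form were always longer, so the second form is the upstream acceptor. Annotation and letters came from TAIR10.1 RefSeq.

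edgeR 4.0.16 (R 4.3.3) was run on both count columns of each library with a library term and a group-by-form term, over all 5403 events (a minimum of 10 reads of both forms together in every library compared), with all 10 accession libraries in 1 fit and all 18 for the hybrids. Calls needed a Benjamini-Hochberg adjusted p under 0.05. limma 3.58.1 on PSI and DESeq2 1.42.0 were alternatives. The method was tested on simulated data, where false calls were more frequent than the nominal rate in the test among 5 accessions. There 14.3% of calls were false, beside 5.8% for Bur-0 against Col-0 and 2.94% for Col-0 x Bur-0 against the mid-parent. Of 913 members, 49 had too few reads for every comparison. The limit for an acceptor without reads is 3 divided by the member's reads and covers counting error only. Python 3.11.15, pandas 2.3.3, numpy 2.4.6 and matplotlib 3.10.9 were used. Named members were, for each accession, up to 5 rises and 5 falls with libraries that did not overlap; the 12 widest ranges among accessions; up to 3 hybrid departures each way; the 10 most read members with both acceptors at 20% in all groups; 12 list members; and 8 called ones with another distance in an accession. SR45, LCL1, LD and the 13 members without AG were added after their values were seen.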

Additional observations from a re-analysis of the deposited data

Results flagged for a closer look

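AT2G43160 (acceptors 29 nt apart) was singled out because accessions moved in opposite directions from Col-0: both Bur-0 libraries lay above both Col-0 libraries, by 26.4 points in the mean, and both Ler-1 libraries below them, by -23.4 points. The difference between these 2 effects was not tested on its own; the test of any difference among the 5 accessions gave an adjusted p of 1.65e-05 in edgeR. Groups of 2 libraries were too small for a search of single outlying samples.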

How the results depend on the processing

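Of 117 calls of named members, 82 held when each library of the comparison was left out in turn and 80 under all other alternatives run on them (a minimum of 20 reads could be run on 97); no pairwise or mid-parent call changed direction, and the test among 5 accessions has none. Counts of called members moved beyond 1.5 times under these settings. Requiring 10 points left 28 (Bur-0), 21 (C24), 20 (Kro-0), 28 (Ler-1) and 53 (all 5 accessions). DESeq2 gave 23 in Kro-0 and 32 in Ler-1, and limma on PSI 33 in Ler-1 and 75 among the 5. A fit of the 4 libraries compared gave 20 in Kro-0 and 35 in Ler-1. For the hybrids against the mid-parent, DESeq2 gave 2 (Bur-0) and 2 (Kro-0), limma on PSI 3 (Bur-0) and 3 (C24), and a fit of 6 libraries 1 (Bur-0), 3 (C24) and 0 (Ler-1). Leaving out a library gave, counts within 1.5 times included, 25 to 42 (Bur-0), 19 to 21 (C24), 18 to 21 (Kro-0), 23 to 34 (Ler-1), 78 to 122 (all 5), and 0, 1, 0 and 0 in the hybrids with Bur-0, C24, Kro-0 and Ler-1. The cause was not tested; a left-out library also leaves fewer samples.

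Replicate numbers were not taken as pairs: differences between replicates 1 and 2 correlated between groups at a median r of 0.047 (-0.162 to 0.297), over 0.1 in 13 of 36 pairs. With a replicate block the counts were 64, 37, 37, 52 and 128, and 1, 1, 1 and 2 in the hybrids. A minimum of 20 reads put the share of members whose less used acceptor reached 10% at 21.3% (Kro-0) to 25.5% (Col-0). Depth limits low members: an acceptor without a read may still have a share of up to 3 reads of the total.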

Other observations

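Some called members had an acceptor without a read in Col-0, and those given here were selected for this. With at least 30 Col-0 reads of the member and at least 5 reads of the acceptor in an accession called against Col-0, 33 such acceptors were found, 17 upstream and 16 downstream, 26 of them in 1 accession. The reference has AG at 24 of them. In 21 the highest share in an accession was under 10%, and in 4 it reached 50%. Examples not described above are AT4G33780 (16 nt), with 24.2% of 223 reads in Bur-0, and LDA, a starch debranching enzyme (26 nt), with 11.5% of 262 reads in Ler-1. SCPL13 (23 nt) had 7.41% of 243 reads in C24 and FMO (19 nt) 7.94% of 126 in Ler-1. MES12 (13 nt) had 4.89%, 5.65% and 4.53% in Bur-0, C24 and Kro-0, and none of 370 Col-0 reads, which allows up to 0.811%.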
